A study of Mus musculus with 11 samples.

Results

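The transcription factor p53 switches on a set of genes that stop the cell cycle, start apoptosis or damp metabolic and oxidative stress, and 10 of these genes were followed here: Mdm2, Cdkn1a, Ccng1, Trp53inp1, Pmaip1, Bbc3, Bax, Perp, Sesn2 and Zmat3. They were taken from the array by exact gene symbol, using only probe sets that the platform annotation assigns to a single gene. That gave 16 probe sets for 9 of the 10 genes, out of 45101 probe sets on the array and 18193 named genes. Bax had no such probe set and was not analysed here. Of the 16 probe sets, 15 lay above their array's median on at least 2 arrays and were tested. The exception was an Mdm2 probe set.

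The study profiled 2 clonal progenitor lines of the gut's pacemaker cells, the interstitial cells of Cajal (ICC), together with the stomach muscle each came from, on Affymetrix mouse genome arrays. The tsA58 line (2xSCS70, 3 arrays) came from H-2Kb-tsA58 mice, whose transgene puts a thermolabile simian virus 40 large T antigen under the interferon-inducible H-2Kb promoter. It was kept in neural stem cell proliferation medium at 39.5 °C with no interferon-gamma. Its source was the gastric tunica muscularis (the stomach's muscle coat) of tsA58 mice (3 arrays). The C57BL/6J wild-type line (2xSCS2F10, 3 arrays) was kept at 37 °C in the same base medium with 5% chick embryo extract, an additive that the labels do not name for the tsA58 line, and its source was the same muscle coat of C57BL/6J mice (2 arrays). Each line is 1 clone, and strain, transgene, temperature, clone and medium differ together between the lines, so their parts in a difference between the lines cannot be told apart. The labels give no age or sex. The titles call the arrays of a group biological replicates without saying whether they came from separate cultures or animals, so p-values measure only the spread between these arrays, which may be technical.

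In unstressed cells p53 protein is kept low by MDM2, a ubiquitin ligase that is itself a p53 target, which makes a negative feedback loop. Stress signals release p53, which binds response elements near its targets and raises p21 (from Cdkn1a) for cell cycle arrest and PUMA and NOXA (from Bbc3 and Pmaip1) for apoptosis. SV40 large T antigen binds and blocks p53 while it is folded, and the tsA58 form unfolds at a raised temperature.

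The stretches just upstream of the starts of Cdkn1a, Ccng1 and Bbc3 are shown because they hold the closest matches to the p53 response element among the members that were measured. RefSeq promoter windows of build GRCm38.p6, from 250 bases before to 50 bases after a start, were at hand for 6 of the 10 genes, with 9 windows in all. Each was searched for the p53 response element, which is 2 adjacent 10-base elements with a spacer of 0 bases and reads the same on both strands, so 1 strand covers both. Below are the 250 bases before the start, 5′ to 3′ on the gene's strand, with the best match in capitals. Cdkn1a lies on chr17:29090729-29090978 (plus strand), upstream of the more distal of its 2 RefSeq starts. Ccng1 lies on chr11:40755287-40755536 (minus strand) and Bbc3 on chr7:16309333-16309582 (plus strand).
Cdkn1a: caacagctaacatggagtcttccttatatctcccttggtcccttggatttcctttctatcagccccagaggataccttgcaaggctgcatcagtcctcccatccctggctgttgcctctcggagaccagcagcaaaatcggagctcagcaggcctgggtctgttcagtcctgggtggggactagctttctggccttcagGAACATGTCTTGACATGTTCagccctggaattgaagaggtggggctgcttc
Ccng1: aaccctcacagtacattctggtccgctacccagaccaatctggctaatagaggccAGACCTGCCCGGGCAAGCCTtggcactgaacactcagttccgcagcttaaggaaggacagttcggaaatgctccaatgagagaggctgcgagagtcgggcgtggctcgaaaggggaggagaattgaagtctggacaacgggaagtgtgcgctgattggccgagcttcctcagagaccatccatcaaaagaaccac
Bbc3: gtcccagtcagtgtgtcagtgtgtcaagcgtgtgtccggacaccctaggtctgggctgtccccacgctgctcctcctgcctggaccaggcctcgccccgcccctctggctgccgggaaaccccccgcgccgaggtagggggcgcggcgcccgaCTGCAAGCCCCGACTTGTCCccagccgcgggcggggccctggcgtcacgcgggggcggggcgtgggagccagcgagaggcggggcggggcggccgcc

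The Cdkn1a match runs from 51 to 32 bases before its start and the Ccng1 match from 195 to 176 bases before its start, each with 1 mismatch. Of 32851 promoter windows of this length, 0.0883% held a match with at most 1 mismatch. The Bbc3 match, from 97 to 78 bases before its start, had 3 mismatches, and 6.29% of windows held one at least that close. That share is per window, and Bbc3 had other windows, whose best matches had 5 and 6 mismatches. The windows of Mdm2 and Sesn2 had none with fewer than 5 mismatches. These are matches of letters in a window and say nothing of binding in these samples.

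Levels below are log2 intensities as deposited, made by the authors with RMA. Array medians lay between 4.66 and 4.84, and a level in that range or lower cannot be told from background. A fold change is the difference of group means on the log2 scale with its standard error (SE), fitted with limma. A gene was called higher or lower when its adjusted p was under 0.05 and the change at least 2-fold. For a gene with several probe sets, its lead probe set had the highest mean of all 11 arrays. Levels of different genes are not set against each other, since probe sets differ in brightness.

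The third array of the tsA58 line stood apart. It correlated at 0.956 and 0.966 with the other arrays of its group, which correlated at 0.988 with each other, and its actin control signal at the 3′ end over that at the 5′ end was 0.0526 on the log2 scale, against 0.511 and 0.853 on those arrays. This ratio was 0.415 to 0.472 in tsA58 tissue, 0.844 to 1.02 in C57BL/6J tissue and 0.995 to 1.04 in the C57BL/6J line. It thus also differed between the strains, and results with it as a covariate are given at the end. Calls named below that were lost without the third tsA58 line array are given beside the result. The hybridisation controls, which are added after amplification, averaged 7.93 to 8.26 in the tsA58 line, 7.52 to 9.66 in tsA58 tissue, 9.33 to 9.90 in the C57BL/6J line, against 10.77 to 10.96 in C57BL/6J tissue. Centring all arrays on these controls moved the median of all tested probe sets to 0.70 between the tsA58 line and its tissue, against 0.10 as deposited. The same step moved it to 1.38 (0.15 as deposited) between the C57BL/6J line and its tissue, to 1.47 (-0.02) between the lines, to 2.24 (0.12) between the tissues and to -0.75 (-0.12) for the difference between the strains' changes. Fold changes here are thus relative to most transcripts of the array.

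The lines had little of the defining marker of mature interstitial cells. Kit, the receptor that marks them, averaged 3.51 ± 0.32 in the tsA58 line, against 7.87 ± 0.66 in tsA58 tissue (SD, n = 3 each), and 3.60 ± 0.26 in the C57BL/6J line (n = 3), against 7.15 ± 0.45 in C57BL/6J tissue (n = 2), so the lines were below the array median. Of 5 progenitor markers, Kit among them, 1 was called higher and 1 lower (Kit) in the tsA58 line than in tsA58 tissue, and 1 higher and 2 lower (Kit and Igf1r) in the C57BL/6J line than in C57BL/6J tissue. The higher one was Cd44, a hyaluronan receptor, by 2.65 ± 0.26 (adjusted p = 2.05e-05) in tsA58 and by 1.17 ± 0.29 (adjusted p = 0.0078) in C57BL/6J, and Igf1r, the receptor of insulin-like growth factor 1, differed by -1.23 ± 0.35 (adjusted p = 0.0151) in C57BL/6J. The mean level of 6 smooth muscle markers was 4.58 to 5.29 in the tsA58 line, against 12.7 to 13.1 in tsA58 tissue, and 6.04 to 6.49 in the C57BL/6J line, against 11.3 to 11.5 in C57BL/6J tissue. The mean level of 3 mesothelial markers (Msln, Upk3b and Wt1) also moved with the difference between the lines, at 7.95, 7.44 and 10.3 on the tsA58 line arrays and 10.64 to 11.003 in the C57BL/6J line, against 9.07 to 9.56 in tsA58 tissue and 8.66 to 8.76 in C57BL/6J tissue. Between the lines Msln (-1.75 ± 0.35, adjusted p = 0.00516) and Wt1 (-2.50 ± 0.53, adjusted p = 0.00784) were called lower in tsA58. The part of mesothelial cells in the differences between the lines was not tested. Each line-tissue comparison sets 1 clone of cells against a mixture of muscle, nerve and other cells. In such a mixture, fewer cells of a type and less RNA per cell cannot be told apart.

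These patterns were seen among the p53 targets. Mdm2, Cdkn1a, Bbc3 and Sesn2 were higher in both lines than in the tissue of their strain. Ccng1, Trp53inp1, Bbc3 and Mdm2 were higher in tsA58 than in C57BL/6J cells of the lines. Pmaip1 was lower in the tsA58 line than in the C57BL/6J line and also lower in tsA58 tissue than in C57BL/6J tissue, and lay in the background range in tsA58. Perp was lower in the C57BL/6J line than in C57BL/6J tissue, together with epithelial genes.

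**Figure D1:**
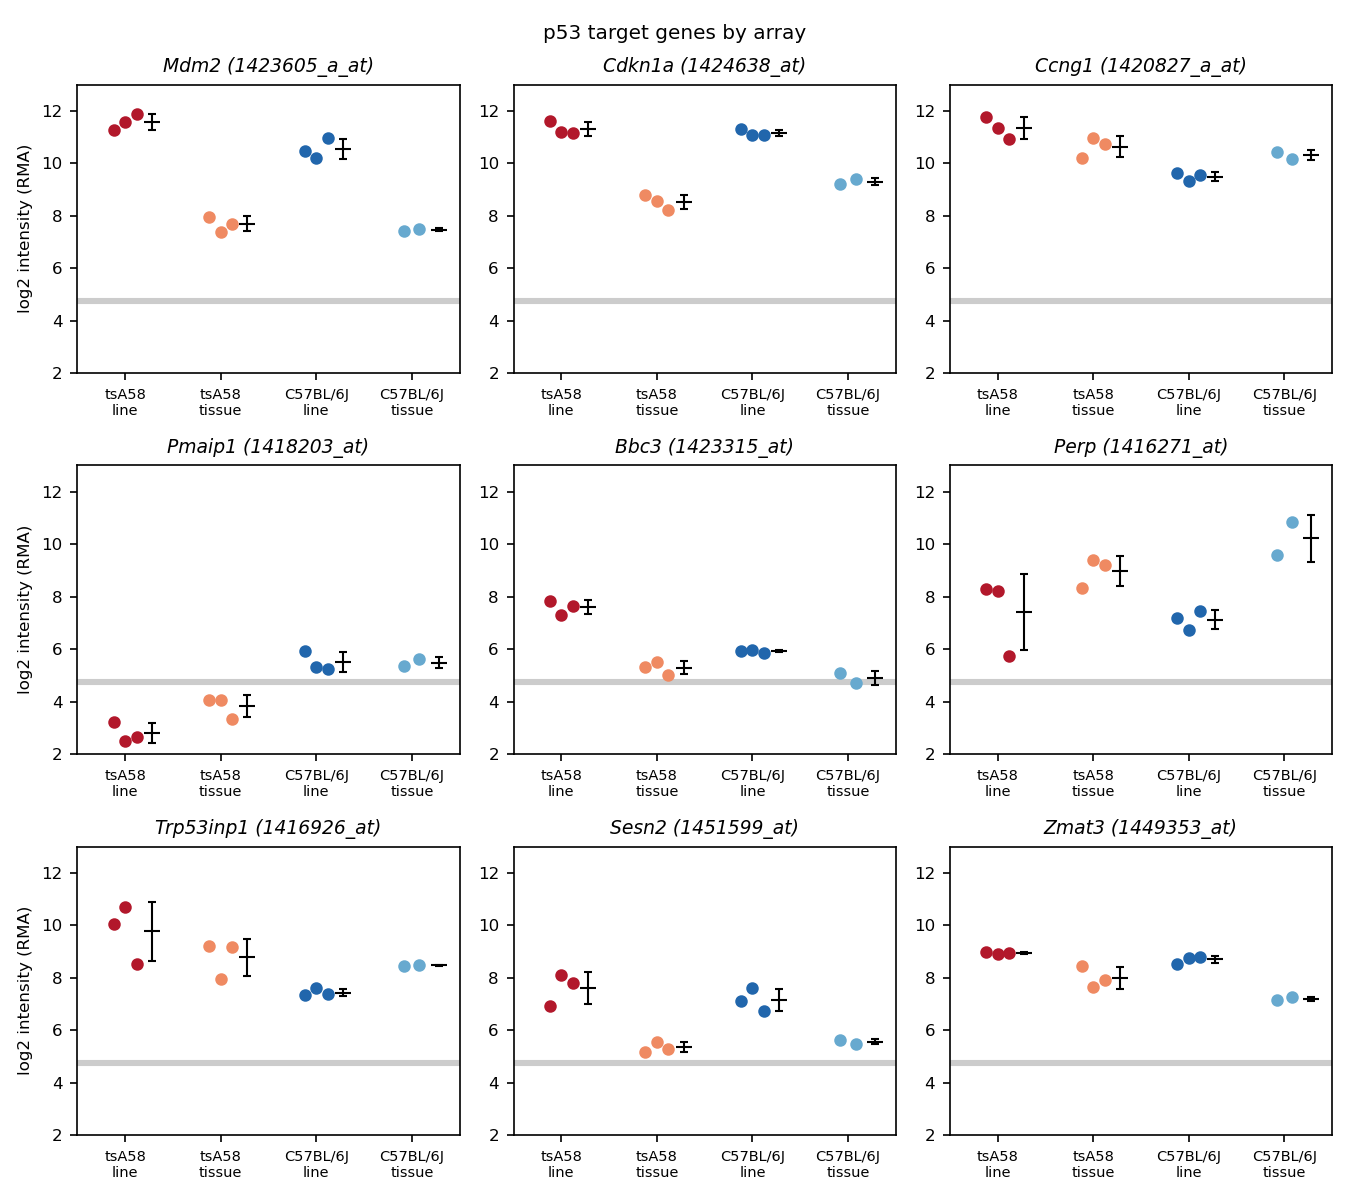
Level of the lead probe set of each of 9 p53 target genes on every array, as log2 RMA intensity on the y axis; points are arrays, the bar beside them is the mean ± SD of the group, and the grey band is the range of array medians (4.66 to 4.84). Mdm2, Cdkn1a, Bbc3 and Sesn2 stand higher in both lines than in their tissues, and Pmaip1 lies below the band on all tsA58 arrays.

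Counted over the lead probe sets of the 9 genes, 4 were called higher and 1 lower in the tsA58 line than in tsA58 tissue, where 12.8% of the 13285 named genes tested were called higher and 18.9% lower. The 1 lower was Pmaip1, which lay in the background range in both groups. Without the third tsA58 line array the count was 5 higher and 0 lower. In the C57BL/6J line against C57BL/6J tissue 5 were called higher and 1 lower, where 17.5% of all named genes were higher and 16.6% lower. In the tsA58 line against the C57BL/6J line 4 were called higher and 1 lower, against 8.42% and 5.82% of all named genes, and 3 higher and 1 lower without the third tsA58 line array. In tsA58 tissue against C57BL/6J tissue 0 were called higher and 1 lower, against 9.79% and 3.37% of all. The median log2 fold change of the 9 genes was 0.98 in the tsA58 line against its tissue, 1.02 in the C57BL/6J line against its tissue, 0.47 between the lines and 0.22 between the tissues. Over all tested probe sets those medians were 0.10, 0.15, -0.02 and 0.12.

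Over single probe sets, 10 of the 15 tested were called in either direction in the tsA58 line against its tissue, where 30.5% of all 26903 tested probe sets were called. The count was 8 of 15 for the C57BL/6J line against its tissue (34.1% of all), 10 of 15 for the lines (14.2% of all) and 5 of 15 for the tissues (15.9% of all). The arrays of the 2 groups did not overlap for 13 of 15 probe sets in the tsA58 line against its tissue, where this held for 50.5% of all probe sets. It held for 11 of 15 between the C57BL/6J line and its tissue (74.5% of all), for 11 of 15 between the lines (39.5% of all) and for 9 of 15 between the tissues (55.5% of all). C57BL/6J tissue has 2 arrays and the other groups have 3.

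Mdm2, the ubiquitin ligase that marks p53 for degradation, had the largest rise over tissue among the 9 lead probe sets in both strains. Its lead probe set (1423605_a_at) read 11.28, 11.56 and 11.87 in the tsA58 line and 7.96, 7.39 and 7.70 in tsA58 tissue. In the C57BL/6J line it read 10.48, 10.18 and 10.95, and in C57BL/6J tissue 7.42 and 7.51. Every array of a line lay above every tissue array, and every tsA58 line array above every C57BL/6J line array, while the tissues overlapped. Mdm2 was 14.8-fold higher in the tsA58 line than in tsA58 tissue (log2 3.88 ± 0.24 SE, adjusted p = 5.8e-07) and 8.40-fold higher in the C57BL/6J line than in C57BL/6J tissue (log2 3.07 ± 0.27, adjusted p = 1.05e-05). Between the lines the difference was 1.03 ± 0.24 (adjusted p = 0.0123), and this call sat at the fold minimum. It was lost when the third tsA58 line array was left out (0.88, adjusted p = 0.022), and also without the first C57BL/6J line array (1.00, adjusted p = 0.0506) or the second (0.86, adjusted p = 0.0522).

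The second Mdm2 probe set (1427718_a_at) gave the same order of groups. It read 11.22, 11.35 and 12.01 in the tsA58 line, against 7.02, 6.81 and 6.95 in tsA58 tissue, and 10.15, 9.70 and 10.45 in the C57BL/6J line, against 5.90 and 5.89 in C57BL/6J tissue. Both line-tissue gaps were wider than with the lead probe set, at 4.60 ± 0.25 (adjusted p = 1.7e-07) in tsA58 and 4.21 ± 0.28 (adjusted p = 1.48e-06) in C57BL/6J. With this probe set the tsA58 line exceeded the C57BL/6J line by 1.43 ± 0.25 (adjusted p = 0.00255), and tsA58 tissue exceeded C57BL/6J tissue by 1.03 ± 0.28 (adjusted p = 0.0212), a difference that the lead probe set did not show (0.22 ± 0.27, adjusted p = 0.608). The third probe set (1457929_at) read 2.68 to 3.37 on every array but the third of the tsA58 line, where it read 4.93, and was not tested.

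Cdkn1a, which encodes the cyclin-dependent kinase inhibitor p21, overlapped between the lines and was higher in both than in tissue. Its lead probe set (1424638_at) read 11.61, 11.17 and 11.14 in the tsA58 line, against 8.78, 8.56 and 8.22 in tsA58 tissue, and 11.30, 11.07 and 11.09 in the C57BL/6J line, against 9.20 and 9.41 in C57BL/6J tissue. The arrays of the lines interleaved, and all tsA58 tissue arrays lay below both C57BL/6J tissue arrays. Its level was 6.93-fold higher in the tsA58 line than in tsA58 tissue (log2 2.79 ± 0.20, adjusted p = 1.83e-06) and 3.61-fold higher in the C57BL/6J line than in C57BL/6J tissue (1.85 ± 0.23, adjusted p = 8.97e-05). The difference between the lines was 0.16 ± 0.20 (adjusted p = 0.623), with a 95% interval from -0.29 to 0.60. The difference between the tissues, -0.78 ± 0.23, had an adjusted p of 0.0295 but did not reach the fold minimum.

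The dimmer Cdkn1a probe set (1421679_a_at) varied more within the lines. It read 8.70, 8.07 and 9.68 in the tsA58 line, against 5.94, 6.21 and 6.18 in tsA58 tissue, and 8.81, 8.65 and 7.77 in the C57BL/6J line, against 7.86 and 7.78 in C57BL/6J tissue. Here the C57BL/6J line overlapped its tissue (0.59 ± 0.42, adjusted p = 0.279), while the tsA58 line lay above its tissue by 2.71 ± 0.38 (adjusted p = 0.000226). Transcripts seen by this probe set were lower in tsA58 tissue than in C57BL/6J tissue by 1.71 on the log2 scale (SE 0.42, adjusted p = 0.0152).

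Ccng1 encodes cyclin G1, which recruits a phosphatase to MDM2, and its difference between the lines was larger than that between either line and its tissue. Its lead probe set (1420827_a_at) read 11.78, 11.33 and 10.91 in the tsA58 line, against 10.19, 10.96 and 10.74 in tsA58 tissue, and 9.61, 9.30 and 9.55 in the C57BL/6J line, against 10.44 and 10.17 in C57BL/6J tissue. The C57BL/6J line was the lowest group on every array and the tsA58 line overlapped its tissue. Ccng1 was 3.61-fold higher in the tsA58 line than in the other line (log2 1.85 ± 0.26, adjusted p = 0.00078). With this probe set the tsA58 line differed from its tissue by 0.71 ± 0.26 (adjusted p = 0.0459) and the C57BL/6J line by -0.82 ± 0.29 (adjusted p = 0.0403), both under the fold minimum.

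All 3 Ccng1 probe sets were called higher in the tsA58 line than in the C57BL/6J line, by 2.67 ± 0.22 (adjusted p = 2.6e-05) for 1450016_at and 2.38 ± 0.26 (adjusted p = 0.000146) for 1450017_at. The probe set 1450016_at read 10.83, 10.37 and 10.67 in the tsA58 line, against 9.05, 9.81 and 9.21 in tsA58 tissue, and 8.10, 7.90 and 7.87 in the C57BL/6J line, against 8.23 and 8.17 in C57BL/6J tissue. For 1450017_at the values were 10.85, 10.28 and 9.94 in the tsA58 line, against 9.05, 9.72 and 9.37 in tsA58 tissue, and 7.97, 7.76 and 8.22 in the C57BL/6J line, against 7.76 and 7.80 in C57BL/6J tissue. Both of these probe sets, unlike the lead one, were also called higher in tsA58 tissue than in C57BL/6J tissue, by 1.15 ± 0.25 (adjusted p = 0.0076) and 1.60 ± 0.29 (adjusted p = 0.00335). The tsA58 line was called higher than its tissue with 1450016_at (1.27 ± 0.22, adjusted p = 0.000918). With 1450017_at that change was 0.98 ± 0.26 (adjusted p = 0.00979), under the fold minimum, and was called without the third tsA58 line array (1.19, adjusted p = 0.00314). The C57BL/6J line differed from its tissue by -0.25 ± 0.25 (adjusted p = 0.442) with 1450016_at and 0.20 ± 0.29 (adjusted p = 0.596) with 1450017_at.

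Bbc3 encodes PUMA, a BH3-only protein that frees BAX and BAK to open mitochondria. Its probe set (1423315_at) read 7.83, 7.31 and 7.63 in the tsA58 line, against 5.32, 5.51 and 5.02 in tsA58 tissue, and 5.93, 5.95 and 5.87 in the C57BL/6J line, against 5.09 and 4.70 in C57BL/6J tissue. The tsA58 line stood above all other groups, and the C57BL/6J line above both tissues by a smaller margin. The tsA58 line was 4.94-fold higher than its tissue (log2 2.31 ± 0.20, adjusted p = 7.66e-06) and 3.19-fold higher than the C57BL/6J line (1.67 ± 0.20, adjusted p = 0.000283). The C57BL/6J line was 2.03-fold higher than its tissue (1.02 ± 0.23, adjusted p = 0.00374). That last call was lost without the second C57BL/6J tissue array (0.82, adjusted p = 0.0514), and C57BL/6J tissue lies close to the array median, where a fold change is understated.

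Pmaip1 encodes NOXA, another BH3-only protein, and was lower in tsA58 than in C57BL/6J in both line and tissue. Its probe set (1418203_at) read 3.24, 2.50 and 2.65 in the tsA58 line, against 4.06, 4.07 and 3.33 in tsA58 tissue, and 5.93, 5.32 and 5.23 in the C57BL/6J line, against 5.34 and 5.63 in C57BL/6J tissue. All tsA58 arrays lay below the array median and all C57BL/6J arrays above it, in line and tissue alike. The probe set passed the filter on low values through the C57BL/6J arrays alone, and the tsA58 values lie in the background range, so the size of the difference is only bounded. Taking the tsA58 groups at the highest array median, the tsA58 line was at least 1.57-fold lower than the C57BL/6J line (adjusted p = 0.000122 by limma) and tsA58 tissue at least 1.56-fold lower than C57BL/6J tissue (adjusted p = 0.00451). The C57BL/6J line and its tissue differed by 0.01 ± 0.32, with a 95% interval from -0.70 to 0.71. The fit also called the tsA58 line lower than its tissue (adjusted p = 0.013), but both groups lie in the background range, so no fold is given, and that call was lost when the second or the third tsA58 line array, or the first or second tsA58 tissue array, was left out. A single probe set carries these values, so whether a sequence difference between the strains under the probes has a part in them was not tested.

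Perp encodes a tetraspan membrane protein that is a p53 target in apoptosis and a component of desmosomes in epithelia. Its probe set (1416271_at) read 8.30, 8.20 and 5.74 in the tsA58 line, against 8.32, 9.39 and 9.21 in tsA58 tissue, and 7.19, 6.73 and 7.45 in the C57BL/6J line, against 9.58 and 10.86 in C57BL/6J tissue. All line arrays lay below all arrays of their tissue, narrowly so in tsA58, where the third line array stood far below the others. The C57BL/6J line was lower than its tissue by a log2 difference of -3.10 ± 0.70 (adjusted p = 0.00413), a call lost without the second C57BL/6J tissue array (-2.46, adjusted p = 0.0564). The tsA58 line differed from its tissue by -1.56 ± 0.62 (adjusted p = 0.0621) with all arrays, by -0.72 without the third line array, and by -2.01 (adjusted p = 0.0376) or -1.95 (adjusted p = 0.0421) without the first or the second.

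Most of the mucosal and desmosome genes were also lower in the lines than in tissue. Of 18 such genes, 12 were called lower, 1 (Krt18, a simple keratin) higher and 5 in neither direction in the tsA58 line against tsA58 tissue. Without the third tsA58 line array 13 were lower and 0 higher, with Krt18 at 1.33 (adjusted p = 0.0701). In the C57BL/6J line against C57BL/6J tissue 11 were lower, 0 higher and 7 in neither direction. Of all named genes, 18.9% were lower and 12.8% higher in the tsA58 comparison, and 16.6% and 17.5% in the C57BL/6J one. The mean level of the 18 genes was 5.36 to 6.10 in the tsA58 line, against 8.39 to 9.70 in tsA58 tissue, and 6.06 to 6.34 in the C57BL/6J line, against 9.34 to 9.72 in C57BL/6J tissue. Each line array had 13 of the 18 above its median, and each tissue array 17 or 18. Dsp, which encodes desmoplakin, averaged 2.96 ± 0.15 in the tsA58 line, against 8.14 ± 0.95 in tsA58 tissue (SD, n = 3 each), and 2.64 ± 0.10 in the C57BL/6J line (n = 3), against 10.4 ± 0.51 in C57BL/6J tissue (n = 2). Within the tsA58 line the arrays did not follow Perp: the third, with the lowest Perp level, had the highest mean of these genes (6.10, against 5.71 and 5.36). The part of epithelial cells in the Perp difference was not tested.

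**Figure D2:**
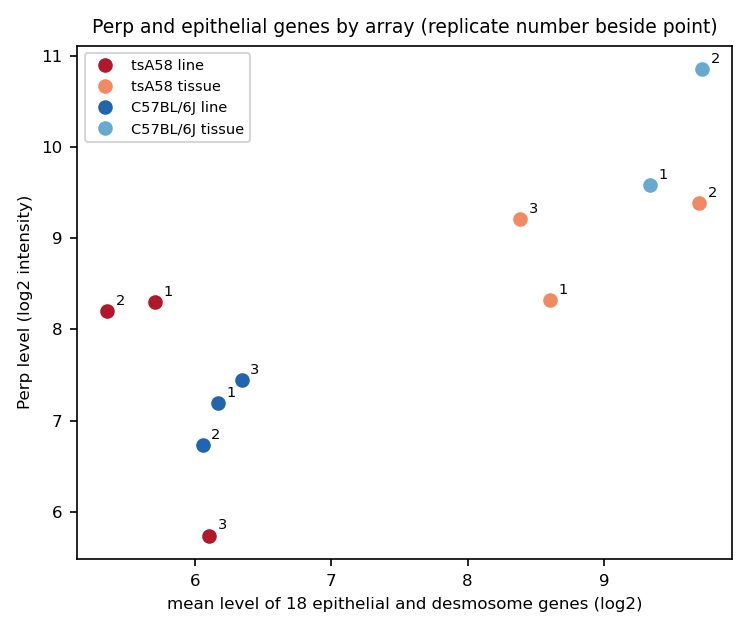
Perp level (y axis, log2 intensity) against the mean level of 18 epithelial and desmosome genes (x axis, log2 intensity) on each of the 11 arrays, coloured by group with the replicate number beside each point. Tissue arrays lie at 8.39 to 9.72 on the x axis and line arrays at 5.36 to 6.34, and the third array of the tsA58 line has the lowest Perp level, 5.74.

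Trp53inp1 encodes a p53-induced nuclear protein that acts in autophagy and cell death. Its lead probe set (1416926_at) read 10.06, 10.71 and 8.51 in the tsA58 line, against 9.21, 7.96 and 9.17 in tsA58 tissue, and 7.34, 7.60 and 7.36 in the C57BL/6J line, against 8.44 and 8.49 in C57BL/6J tissue. The C57BL/6J line was the lowest group, and the third tsA58 line array lay within the range of its tissue. Trp53inp1 was 5.02-fold higher in the tsA58 than in the C57BL/6J line (log2 2.33 ± 0.49, adjusted p = 0.00743). The change against its tissue was 0.98 ± 0.49 (adjusted p = 0.129) in tsA58 and -1.04 ± 0.55 (adjusted p = 0.149) in C57BL/6J. Without the third tsA58 line array both were called, at 1.60 (adjusted p = 0.00447) and -1.04 (adjusted p = 0.0337).

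The dimmer Trp53inp1 probe set (1416927_at) read 6.28, 6.96 and 6.08 in the tsA58 line, against 5.33, 5.29 and 5.26 in tsA58 tissue, and 5.18, 4.66 and 4.47 in the C57BL/6J line, against 4.92 and 5.07 in C57BL/6J tissue. Here the tsA58 line was above all other arrays, and the C57BL/6J groups lay near the array median. It was called higher in the tsA58 line than in tsA58 tissue (1.15 ± 0.25, adjusted p = 0.00375) and than in the C57BL/6J line (at least 3.02-fold against the highest array median, adjusted p = 0.00117).

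Sesn2 encodes sestrin 2, which restrains mTORC1 under amino acid and oxidative stress. Its lead probe set (1451599_at) read 6.93, 8.10 and 7.81 in the tsA58 line, against 5.18, 5.55 and 5.29 in tsA58 tissue, and 7.09, 7.59 and 6.74 in the C57BL/6J line, against 5.63 and 5.49 in C57BL/6J tissue. Both lines lay above both tissues, and they overlapped with each other. Sesn2 was 4.84-fold higher in the tsA58 line than in tsA58 tissue (log2 2.27 ± 0.31, adjusted p = 0.000172) and 3.00-fold higher in the C57BL/6J line than in C57BL/6J tissue (1.58 ± 0.34, adjusted p = 0.00322). Between the lines the lead probe set differed by 0.47 ± 0.31 (adjusted p = 0.297, 95% interval from -0.20 to 1.15). The dimmer one (1425139_at), which read 6.17, 7.01 and 6.94 in the tsA58 line and 5.53, 5.81 and 5.08 in the C57BL/6J line, was called higher in the tsA58 line (1.23 ± 0.28, adjusted p = 0.00978).

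Zmat3 encodes a zinc finger RNA-binding protein that acts in splicing. Its probe set (1449353_at) read 8.97, 8.91 and 8.92 in the tsA58 line, against 8.46, 7.63 and 7.90 in tsA58 tissue, and 8.53, 8.75 and 8.80 in the C57BL/6J line, against 7.13 and 7.26 in C57BL/6J tissue. Each line lay above its tissue, and tsA58 tissue above C57BL/6J tissue. The C57BL/6J line was 2.83-fold higher than its tissue (log2 1.50 ± 0.24, adjusted p = 0.00046). The change in tsA58, 0.94 ± 0.21 (adjusted p = 0.00429), and the difference between the tissues, 0.80 ± 0.24 (adjusted p = 0.0318), were under the fold minimum. The lines differed by 0.24 ± 0.21 (adjusted p = 0.451), with a 95% interval from -0.22 to 0.71.

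**Figure D3:**
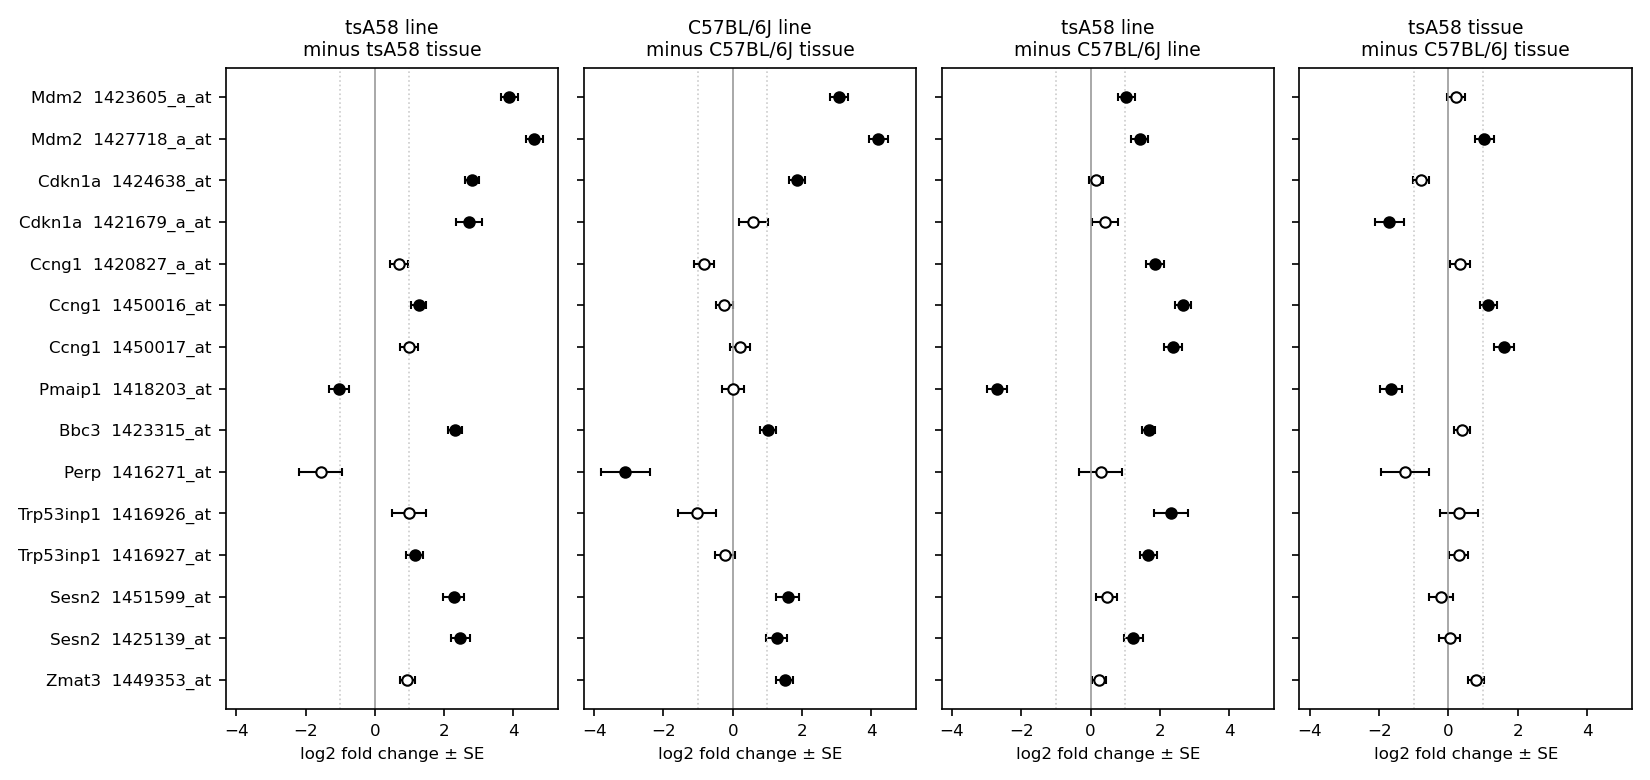
Log2 fold change ± SE (x axis) of the 15 tested probe sets of 9 p53 target genes (rows) in 4 comparisons (panels); filled points were called at adjusted p under 0.05 and 2-fold, open points were not, and dotted lines mark 2-fold. Mdm2, Cdkn1a, Bbc3 and Sesn2 lie right of 0 in both line-tissue panels, and all 3 Ccng1 probe sets lie right of the dotted line between the lines.

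Whether the change against tissue differed between the strains was tested as the tsA58 line-minus-tissue change minus the C57BL/6J one. Of the 9 lead probe sets 2 were called, both higher in tsA58, where 7.54% of all named genes were called higher and 13.2% lower. Of the 15 probe sets 5 were called, all higher, where 22.3% of all were called in either direction. The lead Ccng1 probe set gave 1.53 ± 0.39 (adjusted p = 0.0176) and its probe set 1450016_at 1.52 ± 0.33 (adjusted p = 0.00836). Bbc3 gave 1.29 ± 0.30 (adjusted p = 0.0119), the dimmer Cdkn1a probe set 2.11 ± 0.57 (adjusted p = 0.0213) and the dimmer Trp53inp1 probe set 1.37 ± 0.38 (adjusted p = 0.0234). For that Cdkn1a probe set the lines themselves overlapped (0.41 ± 0.38, adjusted p = 0.48), while the tissues differed by -1.71 ± 0.42. The lead Cdkn1a probe set gave 0.94 ± 0.30 (adjusted p = 0.0445), under the fold minimum, and Mdm2 gave 0.81 ± 0.36 (adjusted p = 0.129). The count of genes rested on C57BL/6J tissue, which has 2 arrays: without its first array 0 of the 9 lead probe sets were called, with Bbc3 at 1.09 (adjusted p = 0.0676) and Ccng1 at 1.39 (adjusted p = 0.0811). Without the third tsA58 line array 5 were called, among them Trp53inp1 at 2.64 (adjusted p = 0.00356) and Perp at 2.37 (adjusted p = 0.0112).

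**Figure D4:**
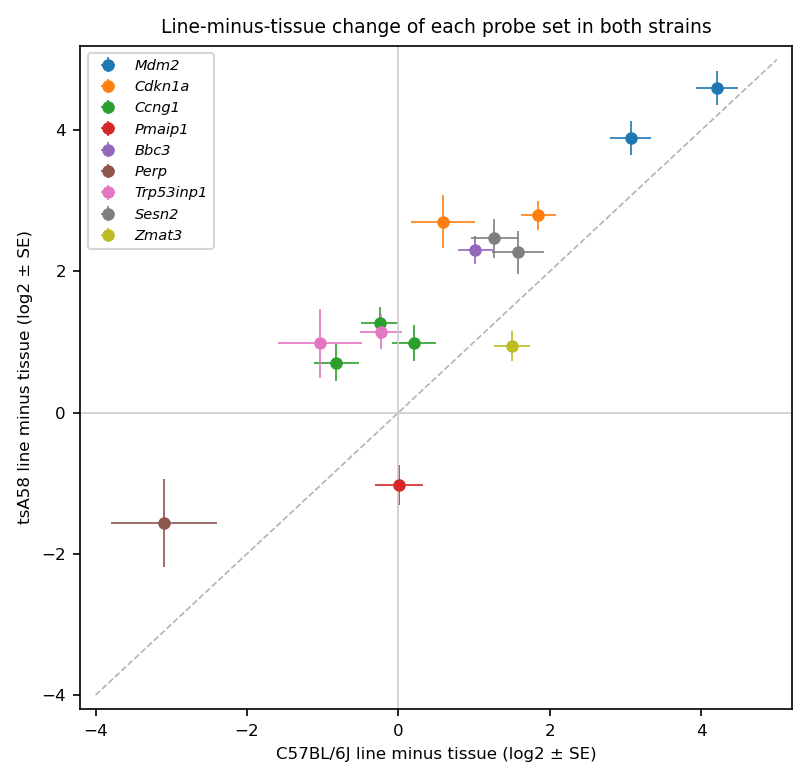
Line-minus-tissue change of each tested probe set in C57BL/6J (x axis) and in tsA58 (y axis), as log2 ± SE, coloured by gene; the dashed line marks equal changes. Mdm2 lies at the upper right in both strains, and the points of all genes but Pmaip1 and Zmat3 lie above the dashed line.

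Other genes of the p53 pathway were counted from lists, by lead probe set. The lists were chosen with earlier results of these data known. Of 28 further p53 targets, 14 were called higher and 2 lower in the tsA58 line than in tsA58 tissue, against 12.8% and 18.9% of all named genes. In the C57BL/6J line against C57BL/6J tissue 10 were higher and 1 lower, against 17.5% and 16.6% of all. In the tsA58 line against the C57BL/6J line 9 were higher and 0 lower, against 8.42% and 5.82%. In tsA58 tissue against C57BL/6J tissue 4 were higher and 0 lower, against 9.79% and 3.37%. The median log2 fold changes of the 28 were 0.95, 0.73, 0.44 and 0.54, where those of all named genes were -0.00013, 0.12, -0.04 and 0.18. For the difference between the strains' changes 4 of the 28 were higher in tsA58 and 3 lower, against 7.54% and 13.2% of all. Their median there was 0.15, against -0.18 for all named genes. Eda2r, a death receptor of the TNF receptor family, was in the background range in both tissues and at least 12.7-fold higher in the tsA58 line than in tsA58 tissue (adjusted p = 1.52e-05) and at least 2.31-fold higher in the C57BL/6J line than in C57BL/6J tissue (adjusted p = 0.00105). It was also higher in the tsA58 line than in the C57BL/6J line (2.46 ± 0.36, adjusted p = 0.00093). Ephx1, a microsomal epoxide hydrolase, was higher in the tsA58 line than in the C57BL/6J line (2.56 ± 0.25, adjusted p = 6.8e-05) and in tsA58 tissue than in C57BL/6J tissue (1.78 ± 0.28, adjusted p = 0.00164). Btg2, an antiproliferative factor, averaged 9.93 ± 0.33 in the tsA58 line, against 6.99 ± 0.18 in the C57BL/6J line (SD, n = 3 each), a difference of 2.93 ± 0.26 (adjusted p = 3.68e-05). Against tissue, Btg2 was called lower in the C57BL/6J line and in neither direction in the tsA58 line.

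Not all of these targets followed that order. Gadd45a, a growth arrest and DNA damage gene, was higher than in tissue in the C57BL/6J line (5.13 ± 0.75, adjusted p = 0.00029) by more than in the tsA58 line (1.95 ± 0.67, adjusted p = 0.0353), and the difference of these changes was called (-3.18 ± 1.01, adjusted p = 0.0417) but not without the third tsA58 line array (-2.83, adjusted p = 0.0618). Sesn1, a relative of Sesn2, was lower in the tsA58 line than in tsA58 tissue (-2.94 ± 0.39, adjusted p = 0.000149), the direction opposite to that of Sesn2. Plk2, a polo-like kinase, was higher than in tissue in the tsA58 line (2.90 ± 0.49, adjusted p = 0.000744) and also in the C57BL/6J line (3.15 ± 0.54, adjusted p = 0.00083), and the lines differed by -0.03 ± 0.49 (adjusted p = 0.978).

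Of 14 regulators of p53 that were tested, 5 were called higher and 2 lower in the tsA58 line than in tsA58 tissue, against 12.8% and 18.9% of named genes. In the C57BL/6J line against C57BL/6J tissue 3 were higher and 3 lower, near the 17.5% and 16.6% of named genes. Between the lines 0 were called in either direction, where 8.42% of named genes were higher and 5.82% lower. Of the 14, 3 had an unadjusted limma p under 0.05 between the lines, all 3 higher in tsA58. The count of calls between the lines was 4 higher without the third tsA58 line array and 14 with arrays centred on the hybridisation controls. Cdkn2a, whose alternative-frame product p19ARF inhibits MDM2, averaged 7.32 ± 0.88 in the tsA58 line, against 3.41 ± 0.24 in tsA58 tissue (SD, n = 3 each), and 6.66 ± 0.46 in the C57BL/6J line (n = 3), against 3.15 ± 0.10 in C57BL/6J tissue (n = 2). It was thus above the array medians in the lines and in the background range in the tissues, and passed the filter on low values through the line arrays alone. The size of each difference is therefore only bounded. Set against the highest array median, the tsA58 line was at least 5.56-fold higher than tsA58 tissue (adjusted p = 2e-05 by limma). The C57BL/6J line was at least 3.52-fold higher than C57BL/6J tissue (adjusted p = 9.62e-05). Mdm4, an MDM2 relative that blocks p53 activity, was higher in the tsA58 line than in tsA58 tissue by 1.38 ± 0.41 (adjusted p = 0.0173) and in the C57BL/6J line than in C57BL/6J tissue by 1.24 ± 0.45 (adjusted p = 0.0444). Trp53 itself was not analysed here, and the p53 relatives Trp63 and Trp73 did not pass the filter on low values.

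PUMA and NOXA act on the BCL2 family. Of 12 members, 2 were called higher and 2 lower in the tsA58 line than in tsA58 tissue, where 12.8% of named genes were higher and 18.9% lower, and 2 higher and 1 lower in the C57BL/6J line than in C57BL/6J tissue, where 17.5% were higher and 16.6% lower. Bid, a BH3-only protein cut by caspase 8, was in the background range in tsA58 tissue and at least 10.9-fold higher in the tsA58 line (adjusted p = 1.61e-06), and was higher than in tissue in the C57BL/6J line too (2.84 ± 0.31, adjusted p = 4.03e-05). Bcl2l11, which encodes BIM, was higher in the tsA58 line than in the C57BL/6J line (1.33 ± 0.35, adjusted p = 0.0205). Bcl2l1, which encodes the survival protein BCL-XL, averaged 8.72 ± 0.42 in the tsA58 line, against 9.70 ± 0.13 in the C57BL/6J line (SD, n = 3 each), a difference of -0.98 ± 0.22 (adjusted p = 0.00946) just under the fold minimum. It was called higher in the C57BL/6J line than in C57BL/6J tissue (2.20 ± 0.24, adjusted p = 4.52e-05). Mcl1, the survival protein that NOXA binds, differed by -0.72 ± 0.18 (adjusted p = 0.00672) between the tsA58 line and its tissue and by -0.43 ± 0.18 (adjusted p = 0.103) between the lines, and was not called in either.

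Genes that p53 lowers through p21 and the DREAM repressor complex, which drive replication and mitosis, were higher in the tsA58 line beside the raised Cdkn1a. All 12 tested were called higher in the tsA58 line than in tsA58 tissue (median 3.30), 0 of 12 were called in either direction in the C57BL/6J line against its tissue (median -0.25, which turned to 0.98 with 4 called higher after centring on the hybridisation controls), and 5 of 12 were higher and 0 lower in the tsA58 line than in the C57BL/6J line (median 1.81), or 7 higher without the third tsA58 line array. Of all named genes, 12.8% were higher and 18.9% lower in the tsA58 line against its tissue. The shares were 17.5% and 16.6% in the C57BL/6J line against its tissue, and 8.42% and 5.82% between the lines. By limma's unadjusted p under 0.05, 2 of the 12 differed in the C57BL/6J comparison, 1 of them higher. Bub1, a spindle checkpoint kinase, averaged 9.51 ± 0.99 in the tsA58 line, against 4.90 ± 2.10 in tsA58 tissue (SD, n = 3 each), and 6.51 ± 0.86 in the C57BL/6J line. Mcm5, a replicative helicase subunit, differed by 3.67 ± 0.60 between the tsA58 line and the C57BL/6J line (adjusted p = 0.00196). The mean level of the 12 genes was 7.73, 5.58 and 4.61 on the tsA58 tissue arrays and 7.71 to 7.78 in C57BL/6J tissue. On those tsA58 tissue arrays 12, 10 and 4 of the genes lay above the array median, so several values are in the background range. Between the tissues 0 of the 12 were called higher and 1 lower in tsA58, against 9.79% and 3.37% of all named genes. Their median there was -2.05, or 0.08 after centring on the hybridisation controls. Of the 12, 10 were called for the difference of the strains' changes, with all 10 higher in tsA58, against 7.54% of named genes. As deposited, that difference (median 3.36) thus holds the low tsA58 tissue values as well as the gap between the lines.

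Sesn2 and Pmaip1 also respond to ATF4, the transcription factor of amino acid and unfolded protein stress, so ATF4 targets were set beside them. Of 10, 4 were called higher and 0 lower in the tsA58 line than in tsA58 tissue, against 12.8% and 18.9% of named genes. In the C57BL/6J line against C57BL/6J tissue 6 were higher and 0 lower, against 17.5% and 16.6%. Without the third tsA58 line array the first count was 6 higher. Chac1, a glutathione-degrading enzyme, was higher by 4.63 ± 0.69 (adjusted p = 0.000339) in the tsA58 line than in its source tissue and by 4.70 ± 0.77 (adjusted p = 0.000598) in the C57BL/6J line than in C57BL/6J tissue. Between the lines 0 were called higher and 2 lower, against 8.42% and 5.82% of named genes. That direction flipped to 7 higher and 0 lower with arrays centred on the hybridisation controls. The 2 were Nupr1 (-1.98 ± 0.48, adjusted p = 0.0139) and Ddit3, which encodes the stress factor CHOP (-1.79 ± 0.59, adjusted p = 0.0496). The Ddit3 call was lost without the third tsA58 line array (-1.39, adjusted p = 0.111). The mean level of the 10 genes was 9.01 to 10.3 in the tsA58 line, against 7.64 to 7.89 in tsA58 tissue, and 8.90 to 10.5 in the C57BL/6J line, against 7.82 to 7.83 in C57BL/6J tissue. The part of ATF4 in the Sesn2 difference was not tested.

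**Figure D5:**
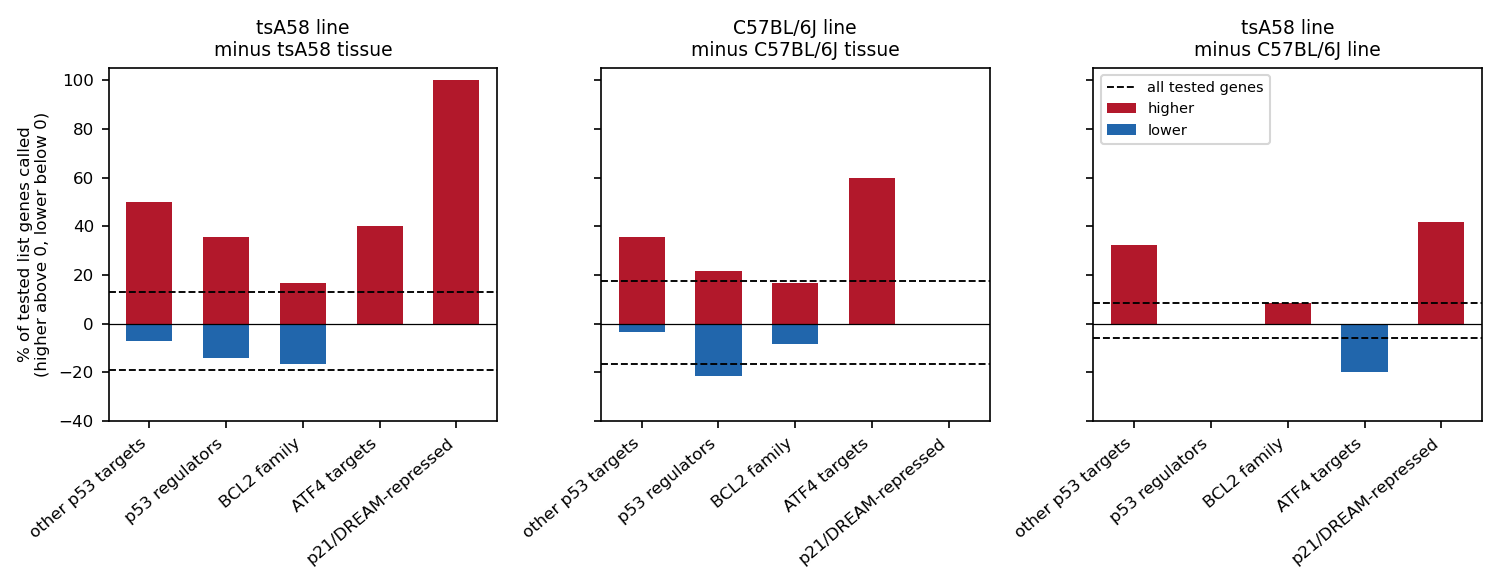
Share of the tested genes of 5 lists called higher (bars above 0) or lower (bars below 0), in percent, in 3 comparisons (panels); dashed lines mark the shares over all 13285 named genes tested. In the panel of the tsA58 line against its tissue the p21 and DREAM list is higher in 12 of 12 genes, and in the C57BL/6J panel in 0 of 12.

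The genes most like Mdm2 and Cdkn1a across the 11 arrays were found by the root mean square difference of levels, each gene centred on its own mean, among 12762 named genes. For Mdm2 they were Aaas (0.422), Six4 (0.447), Tnfaip2 (0.450), Def6 (0.484) and Foxred2 (0.525), where the median over all genes was 1.79. For Cdkn1a they were Ddx11 (0.217), Slc9a5 (0.272), Scd2 (0.308), Rnd3 (0.321) and Sc5d (0.327), where the median was 1.29. Aaas, which encodes the nuclear pore protein aladin, averaged 9.59 in the tsA58 line, 6.18 in tsA58 tissue, 8.03 in the C57BL/6J line and 5.44 in C57BL/6J tissue. Scd2, a fatty acid desaturase, averaged 12.2 in the tsA58 line, 9.86 in tsA58 tissue, 12.1 in the C57BL/6J line and 10.03 in C57BL/6J tissue.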

How the data were processed

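RNA of 11 samples was measured on 1 array each. Per the labels' protocols, about 50 ng of total RNA went through 2 rounds of amplification, primed with oligo(dT) and then with random primers. The values deposited for each probe set are on a log2 scale and come from RMA, run by the authors according to the submitters' processing notes, with no version given in the sources used here. Samples were grouped by title and strain label. Control probe sets (64) were left out, as were names from probe sets with several symbols (932) or none (9160).

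All 26903 probe sets above the array median on at least 2 arrays were fitted with lmFit and eBayes of limma 3.58.1 under R 4.3.3 (a model with 4 group means, 7 residual and 3.71 prior degrees of freedom). Benjamini-Hochberg adjustment ran over all tested probe sets of a comparison. The 5 comparisons were each line against its tissue, line against line, tissue against tissue, and the difference between the line-tissue changes. They share arrays, so their results are not independent. A call needed an adjusted p under 0.05 and a 2-fold change. The text names every probe set of the members, counts and up to 4 called genes per list and comparison, and 5 fixed genes (Trp53, Mdm4, Cdkn2a, Bcl2l1 and Mcl1). The members and lists were chosen with earlier results of these data known. The number of arrays limits the precision. The fit was tested on simulated data with 26903 probe sets: for the tsA58 line against its tissue, 64 of 100 changes of 1.5 on the log2 scale and 94 of 100 of 3 were called, with 3 false calls, and for the difference between changes 22 of 100 and 82 of 100, with 5 false calls. Between the lines there were 11 false calls. The simulated noise was normal and independent between arrays, and only the tsA58 line was changed. It held no array that stood apart, so these counts may not carry over to the real arrays. Arrays were not paired by the replicate numbers in the titles, and 1 of 15 same-number pairs of deviations from group means correlated above 0.1. Deviations within groups of 2 or 3 arrays depend on each other, so this cannot settle whether the numbers pair arrays. Alternatives were other scalings, filters, models of the spread and thresholds, and leaving out each array. Figures were drawn with matplotlib 3.10.9 in Python 3.11.15.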

Additional observations from a re-analysis of the deposited data

Results flagged for a closer look

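For 5 of the 15 tested probe sets the line-minus-tissue change differed between the strains by limma's test of that difference, where 22.3% of all tested probe sets were called. All 5 changes were higher in tsA58. The dimmer Cdkn1a probe set (1421679_a_at) differed by 2.11, the lead Ccng1 probe set (1420827_a_at) by 1.53, the Ccng1 probe set 1450016_at by 1.52, the dimmer Trp53inp1 probe set (1416927_at) by 1.37 and the Bbc3 probe set (1423315_at) by 1.29 on the log2 scale. All 3 tsA58 line arrays lay above all tsA58 tissue arrays for Bbc3, Ccng1 1450016_at and these Cdkn1a and Trp53inp1 probe sets. For the Cdkn1a probe set the lines overlapped (0.41 ± 0.38, adjusted p = 0.48 by limma), while tsA58 tissue was lower than C57BL/6J tissue (-1.71 ± 0.42). Groups of 2 or 3 arrays were not tested for a single array far from the others.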

How the results depend on the processing

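Of 45 results (9 genes by lead probe set in 5 comparisons), each recomputed under 22 to 24 alternatives (1066 values in all), 983 values kept direction and side of the threshold, 22 lost and 47 gained a call, and 14 changed direction. For 13 results nothing changed under any setting. The calls for Mdm2, Cdkn1a and Sesn2 in both line-tissue comparisons, Bbc3 in the tsA58 one, Zmat3 in the C57BL/6J one, and Ccng1, Trp53inp1 and Bbc3 between the lines held under every alternative run. The cause of the changes below was not tested. The array's number of probe sets well above background is unknown because the values carry no detection calls.

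Centring on the hybridisation controls turned the direction of Cdkn1a (1.34), Perp (0.88), Pmaip1 (0.46) and Sesn2 (1.91) between the tissues and of Ccng1 (0.41) and Trp53inp1 (0.20) between the C57BL/6J line and its tissue, beside the shift of all probe sets given above. Between the tissues, Mdm2 was -0.018 after repeated quantile normalization and Perp 0.068 with the actin ratio as covariate. Pmaip1 between the C57BL/6J line and its tissue was -0.061 with cyclic loess and -0.021 with median centring. Leaving out 1 array each, Pmaip1 in that comparison ranged from -0.21 to 0.15, and Perp between the lines from -0.16 to 1.13. Mdm2 between the lines lost its call with median centring, array weights or the actin covariate, Pmaip1 in the tsA58 line against its tissue with hybridisation controls, median centring or array weights, and Bbc3 in the C57BL/6J line against its tissue with cyclic loess or median centring.

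Of the 9 genes, 2 were called for the difference between the strains' changes, against 5 with quantile normalization or array weights, 4 with cyclic loess or median centring, 0 with hybridisation controls, and 0 to 5 leaving out 1 array. Between the lines 5 were called, against 8 with hybridisation controls. Between the tissues 1 was called, against 0 with a filter at the upper quartile, 6 with hybridisation controls, 2 with the actin covariate, 3 with no fold minimum, and 1 to 2 leaving out 1 array.

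Over all probe sets, calls with 1 probe set per gene, where fewer were tested, numbered 4214 for the tsA58 line against its tissue, 4530 for the C57BL/6J line against its tissue, 1880 for the lines, 1696 for the tissues and 2702 for the difference between changes, against 8192, 9168, 3828, 4270 and 6007. With hybridisation controls they numbered 16320 for the lines, 23747 for the tissues and 1226 for the difference, with a filter at the upper quartile 5417 for the tsA58 line against its tissue and 2741 for the tissues, and with no fold minimum 12293 for the tsA58 line against its tissue and 6170 for the lines. The actin covariate gave 6481 for the lines and array weights 9023 for the difference. Leaving out 1 array gave 3578 to 8031 for the difference and 2312 to 4663 for the tissues, lowest without the first C57BL/6J tissue array. The share of all calls that were higher was 69.4% with hybridisation controls against 47.8% for the tsA58 line and its tissue, 89.8% (39.3% with cyclic loess) against 52.3% for the C57BL/6J line and its tissue, 98.9% (49.3% with median centring) against 61.2% for the lines, 26.3% against 44.8% for the difference, and 99.8% (50.7% with quantile normalization, 51.2% with cyclic loess, 41.3% with median centring) against 61.9% for the tissues.

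For the replicate numbers in the titles, same-number deviations correlated at -0.157 to 0.22. Different-number ones correlated at -0.192 to 0.206, with 6 of 30 above 0.1. As said above, this cannot settle whether the numbers pair arrays. With the replicate number as a block, 8139, 8963, 3715, 3817 and 5111 of all probe sets were called in the 5 comparisons, and 5, 6, 5, 1 and 2 of the 9 genes, the same numbers as without it.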
